A study of Mus musculus with 48 samples.

Results

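Immunoglobulin variable segments are the germline exons that give an antibody its antigen-binding domain. Of 278 such segments in the table of whole-tibia RNA, 169 had a mean of at least 1 FPKM (a level that corrects fragment counts for transcript length and library size) over the 12 mice and are described here. They comprised 83 of 151 heavy chain segments (Ighv), 83 of 124 kappa light chain segments (Igkv) and all 3 lambda light chain segments (Iglv). The lowest segments that met the rule were Igkv4-78 at 1.16 FPKM, Ighv3-5 at 1.12 FPKM and Igkv4-90 at 1.07 FPKM, and the highest that did not were Igkv3-3 at 0.987 FPKM, Igkv5-37 at 0.938 FPKM and Igkv4-71 at 0.895 FPKM. A mean of at least 1 FPKM was reached in all 4 groups by 141 members and in 1 group only by 3 members.

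All mice were male C57Bl6J. By the series text young mice were 10 weeks and aged mice 15 to 18 months old. The study's methods give the young age as a range around this, and place the ages at the start of the dietary intervention. Tissue was collected at its end, so all mice were older by then. Each age was either fed ad libitum (AL) on the NIH-31 diet or placed on caloric restriction (CR) for 8 weeks. CR mice received the micronutrient-fortified NIH-31/NIA diet, at 10% restriction in week 1, 20% in week 2 and 40% from week 3. Each of the 4 groups held 3 mice (young AL 9, 10 and 11, young CR 1, 2 and 3, aged AL 13, 14 and 15, aged CR 5, 6 and 7), and the sample list names 4 technical repeats of each mouse, for which the table holds 1 column. Diet formula and food amount changed together and cannot be told apart. The RNA came from frozen, powdered tibia, so marrow was included. Muscle transcripts were measured too and are given below.

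In a developing B cell the recombinase encoded by Rag1 and Rag2 joins 1 variable segment to a joining segment, with a diversity segment between them in the heavy chain, and a B cell as a rule expresses 1 rearranged heavy chain and 1 kappa or lambda chain. All cells of a clone carry the same rearrangement. Plasma cells, which are long-lived in bone marrow, hold far more immunoglobulin mRNA per cell than resting B cells. A level measured in bone therefore sums over many cells, and more cells using a segment and more RNA per cell cannot be told apart here. Pairing of heavy and light chains cannot be read from these values either.

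In the GENCODE annotation of GRCm38, the same assembly as the mm10 build named in the labels, all 278 segments were found by gene identifier. The 83 heavy members lie on chromosome 12 between positions 113588267 and 116000461, all on the minus strand. The 83 kappa members lie on chromosome 6 between 67555497 and 70704177, with 49 on the minus and 34 on the plus strand, and the 3 lambda members lie on chromosome 16 between 19085017 and 19260859. All members but 2 are annotated as functional segments. The exceptions were the heavy pseudogene Ighv1-41, with a mean of 4.48 FPKM, and the kappa pseudogene Igkv2-116, with a mean of 2.70 FPKM. Of all segments measured, 37 heavy and 25 kappa ones are pseudogenes, so the share that reached 1 FPKM was 2.70% and 4.0%, against 72.6% of functional heavy and 82.8% of functional kappa segments.

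Every member has 2 exons, and the second carries the variable domain with a median coding length of 305 bases. The sequences below are shown because these 6 segments held the largest share of their locus in the 3 aged mice with the most uneven use, and because Igkv6-20, higher in aged mice, has a near copy. Each is the last 280 coding bases of exon 2, 5′ to 3′ on the coding strand, from GENCODE transcripts. Capitals mark bases that are substituted or inserted relative to the most similar segment of the same locus. They set a segment apart from that 1 neighbor only, and other segments may share them.
Ighv5-17 (chr12:113859149-113859428, minus strand, against Ighv5-9-1): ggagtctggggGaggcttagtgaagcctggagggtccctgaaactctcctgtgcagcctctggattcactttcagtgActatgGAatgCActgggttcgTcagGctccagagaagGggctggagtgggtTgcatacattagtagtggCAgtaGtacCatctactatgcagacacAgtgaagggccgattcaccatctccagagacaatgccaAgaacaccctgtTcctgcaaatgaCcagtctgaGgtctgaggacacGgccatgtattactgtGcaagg
Igkv6-25 (chr6:70215678-70215957, plus strand, against Igkv6-17): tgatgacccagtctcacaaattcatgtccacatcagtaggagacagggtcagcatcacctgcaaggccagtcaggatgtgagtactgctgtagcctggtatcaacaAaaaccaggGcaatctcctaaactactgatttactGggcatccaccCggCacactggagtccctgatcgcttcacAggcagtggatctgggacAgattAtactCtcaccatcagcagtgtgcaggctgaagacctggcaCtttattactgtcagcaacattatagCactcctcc
Ighv1-81 (chr12:115920279-115920558, minus strand, against Ighv1-85): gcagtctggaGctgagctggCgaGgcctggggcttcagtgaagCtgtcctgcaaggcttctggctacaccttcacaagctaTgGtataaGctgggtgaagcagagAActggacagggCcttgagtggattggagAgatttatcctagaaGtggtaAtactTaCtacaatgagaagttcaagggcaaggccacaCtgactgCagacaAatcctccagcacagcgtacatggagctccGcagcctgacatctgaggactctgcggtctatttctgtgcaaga
Igkv5-48 (chr6:69726573-69726852, minus strand, against Igkv5-45): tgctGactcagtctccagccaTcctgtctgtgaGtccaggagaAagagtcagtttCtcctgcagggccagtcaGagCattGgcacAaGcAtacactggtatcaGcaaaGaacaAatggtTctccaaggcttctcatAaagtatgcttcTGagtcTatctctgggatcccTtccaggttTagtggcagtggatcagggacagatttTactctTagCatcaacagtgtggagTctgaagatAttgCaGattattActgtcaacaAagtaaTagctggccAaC
Ighv8-8 (chr12:115294062-115294341, minus strand, against Ighv8-5): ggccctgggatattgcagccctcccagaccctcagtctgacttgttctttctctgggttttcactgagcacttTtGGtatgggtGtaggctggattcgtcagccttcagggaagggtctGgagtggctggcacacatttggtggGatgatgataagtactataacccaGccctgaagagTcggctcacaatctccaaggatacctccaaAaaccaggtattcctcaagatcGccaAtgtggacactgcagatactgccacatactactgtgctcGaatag
Igkv4-55 (chr6:69607275-69607554, minus strand, against Igkv4-68): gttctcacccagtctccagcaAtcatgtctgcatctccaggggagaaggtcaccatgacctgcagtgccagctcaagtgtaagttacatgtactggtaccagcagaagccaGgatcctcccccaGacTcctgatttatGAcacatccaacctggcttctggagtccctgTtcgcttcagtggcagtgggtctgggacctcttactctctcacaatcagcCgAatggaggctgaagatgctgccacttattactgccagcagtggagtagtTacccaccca
Igkv6-20 (chr6:70335841-70336120, minus strand, against Igkv6-29): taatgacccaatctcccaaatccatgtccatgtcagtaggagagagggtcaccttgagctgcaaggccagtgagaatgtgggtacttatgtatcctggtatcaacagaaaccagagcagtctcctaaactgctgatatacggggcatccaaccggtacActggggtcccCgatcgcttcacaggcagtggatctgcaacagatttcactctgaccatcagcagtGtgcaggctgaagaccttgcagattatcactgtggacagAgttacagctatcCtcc

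Over the whole coding part of exon 2, the most similar segment was 90.9% identical for Ighv5-17, 95.6% for Igkv6-25, 92.8% for Ighv1-81, 85.9% for Igkv5-48, 96.2% for Ighv8-8, 95.7% for Igkv4-55 and 98.3% for Igkv6-20. Among all 169 members the median identity to the most similar segment was 95.4%, and 16 members had a neighbor at least 98% identical. Ighv1-62-2 and Ighv1-71 were identical over this exon, so their separate values are uncertain. The separate values of close relatives such as Igkv6-20 and Igkv6-29, or Igkv5-43 and Igkv5-45 with 3 differences, are uncertain to the extent that reads were counted for either.

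Variable segments varied between mice of 1 group far more than other genes. The median standard deviation within groups was 1.09 on the log2(FPKM + 1) scale for members and 0.147 for all 13590 genes tested, and 166 of the 169 members were among the 500 genes with the largest spread. Pearson correlations between 2 mice on the same log2 scale, over the 83 heavy members, had a median of 0.430 for the 12 pairs within a group (range 0.295 to 0.607) and 0.427 for the 54 pairs from different groups (range 0.178 to 0.603). Over the 83 kappa members the medians were 0.632 within and 0.597 between groups. Over all genes tested the 66 pairs ranged from 0.954 to 0.988. The points of these correlations share a library and are given as a description only. In their mix of segments, 2 mice of the same age and diet were about as unlike as 2 mice of different groups. The values hold no repeat within a mouse, so differences between mice and measurement noise cannot be told apart.

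The 3 aged mice that stood apart, aged AL 15, aged CR 5 and aged CR 7, each drew much of their immunoglobulin RNA from very few segments. In aged AL mouse 15, Ighv5-17 stood at 2906 FPKM and made up 62.4% of the summed heavy level, whereas its highest level in any other mouse was 25.9 FPKM. The same mouse had Ighv12-3 at 545.5 FPKM, 97.9 times the next highest mouse. Its kappa sum was led by Igkv6-25 at 4132 FPKM (47.7% of the kappa sum, against at most 35.8 FPKM in the other mice) and Igkv4-59 at 1639 FPKM (18.9%). Ighv5-17 and Igkv6-25 ranked 13 and 10 among all genes of that mouse.

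In aged CR mouse 5, Ighv1-81 stood at 1034 FPKM (45.8% of the heavy sum) and Ighv1-75 at 537 FPKM (23.8%). The next highest mice had 124 FPKM of Ighv1-81 and 35.1 FPKM of Ighv1-75. Its kappa sum was led by Igkv5-48 at 2676 FPKM (32.3%), Igkv4-59 at 2136 FPKM (25.8%) and Igkv3-4 at 1549 FPKM (18.7%). Igkv4-59 was therefore high in 2 mice of different diets, and its level in the other 10 mice ranged from 7.02 to 181 FPKM.

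In aged CR mouse 7, Ighv8-8 stood at 490 FPKM (34.4% of the heavy sum) and Igkv4-55 at 990 FPKM (30.7% of the kappa sum). The next highest mouse for Ighv8-8, young AL 10, had 152 FPKM, 17.3% of its heavy sum. Ighv1-47 at 138 FPKM was 4.35 times the next highest mouse. The plot of shares per mouse shows these 3 mice beside the other 9.

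**Figure D1:**
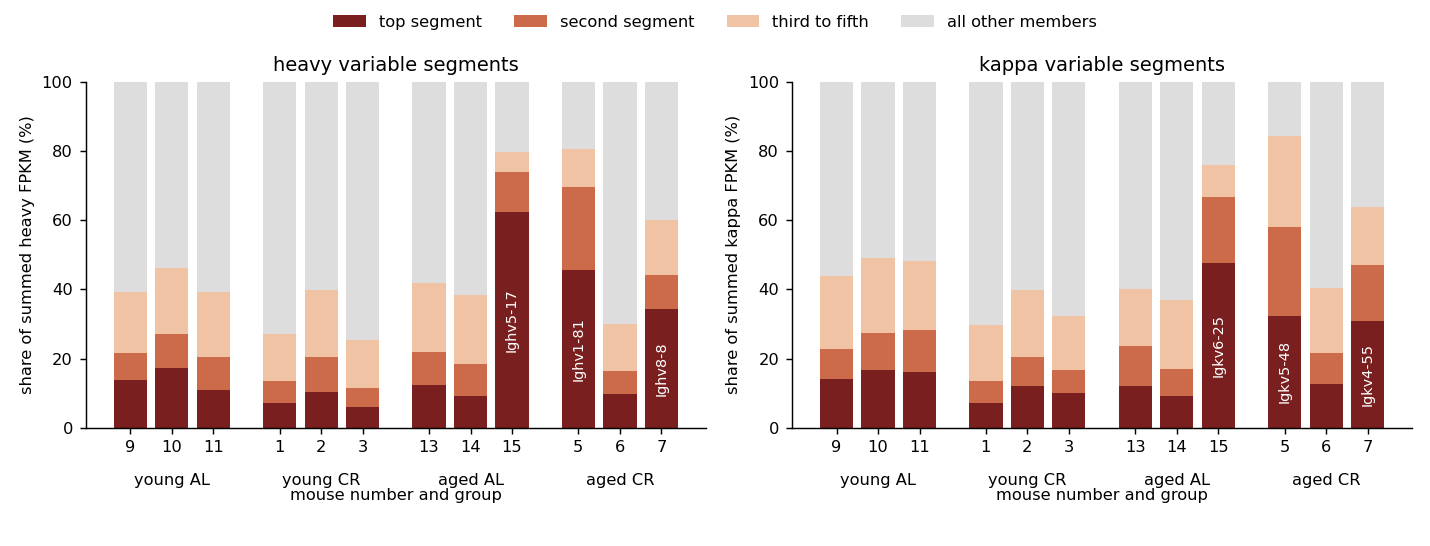
Share of the summed heavy (left) and kappa (right) variable segment level, in percent of FPKM, taken by the top, the second, the next 3 and all other members in each of the 12 mice. Bars of aged AL mouse 15, aged CR mouse 5 and aged CR mouse 7 are labelled with their top segment, which held 34.4% to 62.4% of the heavy sum, while the top segment of the other mice held 5.96% to 17.3%.

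The top heavy segment held 14.03% ± 3.20 of the heavy sum in young AL mice, 7.81% ± 2.34 in young CR mice, 28.0% ± 29.9 in aged AL mice and 30.0% ± 18.4 in aged CR mice (mean ± SD, n = 3 each). In young AL mice 9, 10 and 11 the shares were 13.9%, 17.3% and 10.9%, and in young CR mice 1, 2 and 3 they were 7.04%, 10.4% and 5.96%. Every young CR mouse was thus below every young AL mouse, and the same held for the top kappa segment (7.18% to 12.1% against 14.2% to 16.7%). In aged AL mice 13, 14 and 15 the shares were 12.3%, 9.20% and 62.4%, and in aged CR mice 5, 6 and 7 they were 45.8%, 9.70% and 34.4%. The 2 aged diets overlapped, and the 3 aged mice without a dominant segment lay inside the range of the young mice. These values are summaries over the members and were not tested.

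The effective number of segments, the exponential of the Shannon entropy of the shares, is the number of equally used segments that would give the same diversity. For heavy segments it was 34.0, 30.5 and 36.7 in young AL mice and 49.9, 35.0 and 49.1 in young CR mice. It was 36.1, 39.9 and 6.58 in aged AL mice 13, 14 and 15, and 8.25, 47.2 and 18.9 in aged CR mice 5, 6 and 7. For kappa segments it was 27.7, 27.8 and 28.0 in young AL mice and 44.3, 33.3 and 41.9 in young CR mice, so these groups did not overlap. It was 35.2, 39.2 and 9.29 in aged AL mice and 8.34, 37.6 and 17.4 in aged CR mice. The same 3 aged mice were lowest in both loci. A B cell as a rule expresses both a heavy and a light chain, so the loci are not independent readings. 50% of the heavy sum was reached with 1, 2 and 3 segments in aged AL 15, aged CR 5 and aged CR 7, and with 6 to 14 segments in the other mice.

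Smaller peaks of the same kind were found in young mice. In young AL mouse 11, Ighv1-43 at 134 FPKM was 24.8 times and Ighv1-77 at 118 FPKM 27.3 times the next highest mouse, and Igkv5-43 at 514 FPKM held 16.1% of the kappa sum. In aged AL mouse 13, Igkv16-104 at 501 FPKM was 14.1 times the next mouse. A level more than 3 times that of the next highest mouse was found for 50 members, of which 29 were highest in an aged and 21 in a young mouse, with 11 of them in young AL mouse 11. More than 10-fold over the next mouse was found for 11 members. Of all members, 112 were highest in an aged and 57 in a young mouse. The share of all genes past these ratios was not counted, so the counts are not read as more than background. A single high mouse also raises the mean by which members were chosen. The 5 members with the highest ratio of the top mouse to the median mouse, with 1 FPKM added to both, were Ighv12-3 (295), Igkv6-25 (225) and Ighv5-17 (205) in aged AL mouse 15, Ighv1-43 (124) in young AL mouse 11 and Ighv1-81 (110) in aged CR mouse 5.

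Against this background some segments were used in most mice. 10 different heavy segments and 9 different kappa segments were the top segment of a mouse, and the lists of the 10 highest segments in each mouse drew on 53 heavy and 46 kappa segments. Of these, 27 heavy and 23 kappa segments were in the list of a single mouse. Ighv1-26 was in the heavy lists of 10 mice, with 12.97 to 59.1 FPKM in young and 29.3 to 156.5 FPKM in aged mice. Igkv10-96 was in the kappa lists of 10 mice, with 33.9 to 114 FPKM in young and 77.4 to 476 FPKM in aged mice, followed by Igkv1-110 and Igkv1-117 in 9 lists each. The map of the 20 highest members per locus shows both kinds of segment.

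**Figure D2:**
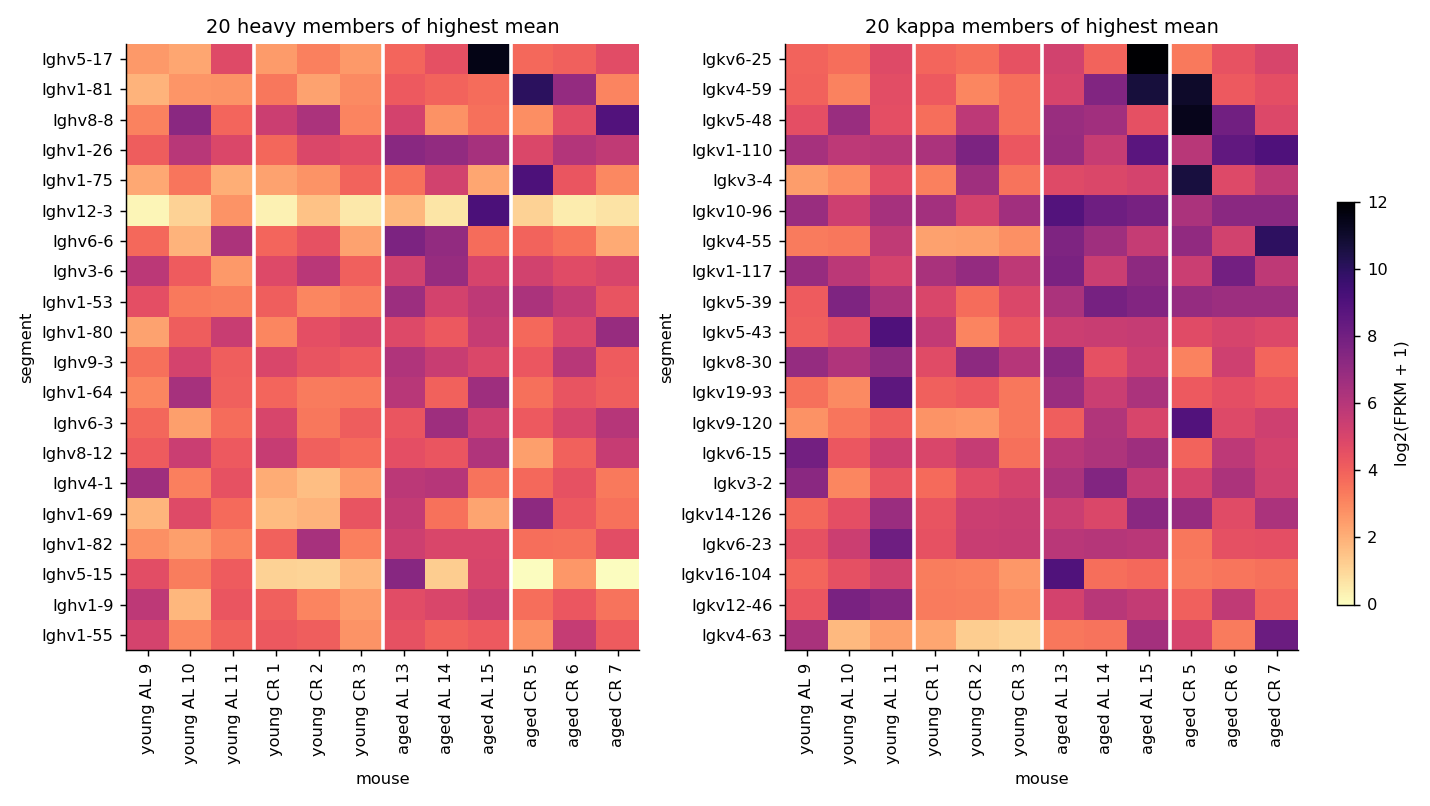
Level of the 20 heavy and the 20 kappa members of highest mean, as log2(FPKM + 1), with mice as columns ordered from young AL over young CR and aged AL to aged CR. Single dark cells such as Ighv5-17 and Igkv6-25 in aged AL mouse 15 contrast with rows such as Ighv1-26 and Igkv10-96, which are at an intermediate level in most mice.

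Segment families, the first number of a segment's name, group segments of similar sequence. Family 1, the largest heavy family with 44 members, held a median of 50.6% of the heavy sum over the 12 mice, with extremes of 14.02% in aged AL mouse 15 and 87.8% in aged CR mouse 5. Heavy family 5, with 8 members, held a median of 5.97% and reached 65.5% in aged AL mouse 15 through Ighv5-17. Kappa family 4, with 20 members, held a median of 17.5% and at most 44.2%, and kappa family 6, with 9 members, held a median of 11.8% and at most 52.9%.

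Summed levels of heavy and kappa segments were on average higher in aged mice. Lambda sums overlapped, at 99.2 to 173 FPKM in young and 82.0 to 752 FPKM in aged mice, with the lowest in aged CR mouse 7. The heavy sum was 738, 879 and 1231 FPKM in young AL mice 9, 10 and 11 and 643, 787 and 489 FPKM in young CR mice 1, 2 and 3. It was 1658, 1395 and 4655 FPKM in aged AL mice 13, 14 and 15 and 2258, 1275 and 1423 FPKM in aged CR mice 5, 6 and 7. The lowest aged mouse was above the highest young mouse. The difference between aged and young mice over both diets was 1.30 on the log2 scale of the sums.

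The kappa sum was 1722, 1994 and 3203 FPKM in young AL and 1293, 1681 and 947 FPKM in young CR mice. It was 4114, 2931 and 8656 FPKM in aged AL and 8282, 2821 and 3220 FPKM in aged CR mice, a log2 difference of 1.41 between the ages, and young AL mouse 11 overlapped the aged mice. Leaving out the 5 highest members of each mouse, the heavy sum ranged from 364 to 747 FPKM in young and 434 to 963 FPKM in aged mice. The log2 difference between the ages was then 0.626. The kappa sum without them ranged from 641 to 1660 FPKM in young and 1159 to 2458 FPKM in aged mice, a log2 difference of 0.773. The median heavy member stood at 3.17 to 5.52 FPKM in the young mice, at 8.03, 8.20 and 8.06 FPKM in aged AL mice 13, 14 and 15, and at 3.66, 8.74 and 4.24 FPKM in aged CR mice 5, 6 and 7. Away from their dominant segments, aged CR mice 5 and 7 were within the young range, while aged AL mouse 15 was not.

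**Figure D3:**
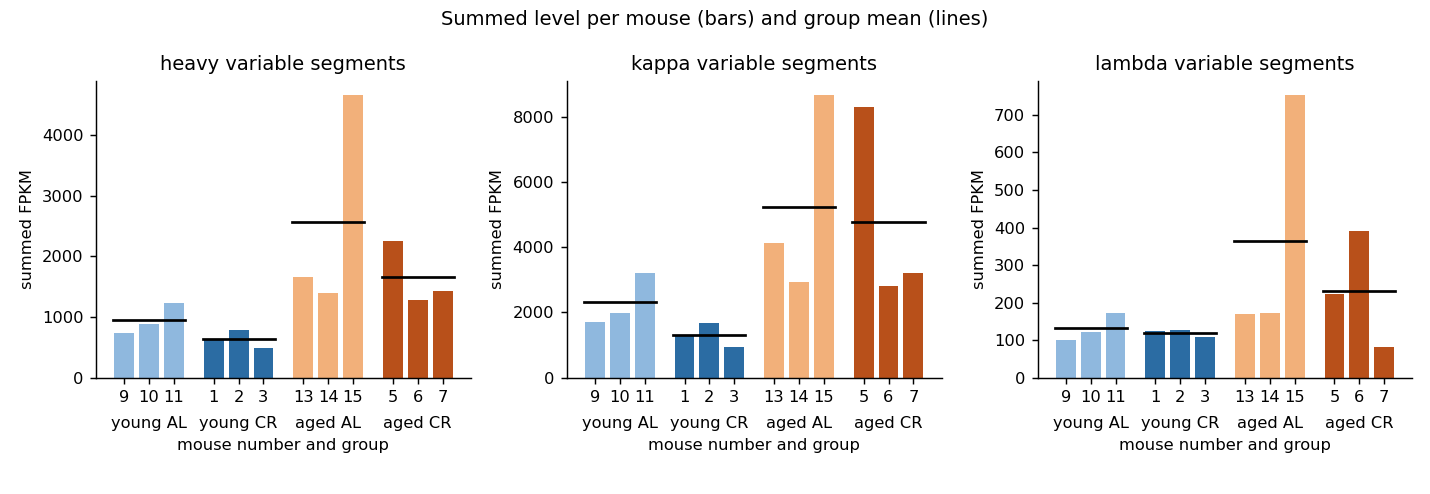
Summed FPKM of the heavy, kappa and lambda members in each mouse (bars, axes from 0) with the group means (lines, n = 3). Heavy sums were 489 to 1231 FPKM in young and 1275 to 4655 FPKM in aged mice.

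Lambda chains, which use 3 variable segments in the mouse, were a minor part of the light chain level. Iglv1 stood at 72.6, 82.0 and 139 FPKM in young AL, 86.1, 90.6 and 89.2 FPKM in young CR, 132, 115 and 698 FPKM in aged AL and 206, 368 and 59.8 FPKM in aged CR mice. Its highest value was again in aged AL mouse 15. Iglv2 stood at 17.7, 28.6 and 17.6 FPKM in young AL, 32.1, 22.9 and 10.5 FPKM in young CR, 30.6, 53.8 and 34.9 FPKM in aged AL and 6.72, 15.9 and 15.3 FPKM in aged CR mice, so that the 2 aged groups did not overlap (log2 fold change -1.62, SE 0.41, adjusted p = 0.41, limma). Iglv3 ranged from 4.74 to 19.05 FPKM over the 12 mice. The lambda share of the light chain variable level ranged from 5.12% to 10.3% in young and from 2.48% to 12.1% in aged mice.

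The first comparison asked how age changed the segments over both diets. Of the 169 members, 6 were called higher and none lower in aged mice at an adjusted p under 0.05 (limma on log2(FPKM + 1), Benjamini-Hochberg adjustment over all 13590 genes), where 0.449% of all genes were called higher and 0.309% lower. Without adjustment, at a p under 0.05, 40 members were higher and 2 lower, against 6.8% and 9.76% of all genes. The fold change was above 0 for 138 members (81.7%) and for 44.4% of all genes. Aged and young mice did not overlap for 4 members that were higher and 0 that were lower, against 0.581% and 0.758% of all genes. The median fold change was 0.65 for members and -0.02 for all genes. In all, 112 of the 169 members had their highest value in an aged mouse. Medians of heavy and kappa members were alike at 0.65 each.

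Ighv14-4 had the smallest p. It stood at 1.82, 1.71 and 1.72 FPKM in young AL, 0.885, 0.459 and 1.205 FPKM in young CR, 8.17, 24.0 and 23.4 FPKM in aged AL and 4.82, 13.05 and 21.8 FPKM in aged CR mice (log2 fold change 2.72, SE 0.33, adjusted p = 0.0038). Every aged mouse was above every young mouse. Igkv6-20 stood at 7.41, 3.07 and 9.24 FPKM in young AL, 6.67, 2.22 and 3.25 FPKM in young CR, 12.5, 70.3 and 61.6 FPKM in aged AL and 19.9, 38.0 and 87.7 FPKM in aged CR mice (log2 fold change 2.81, SE 0.48, adjusted p = 0.034), again with no overlap.

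Igkv6-29, which differs from Igkv6-20 at 5 bases of the exon shown above, stood at 0.425 to 1.77 FPKM in young and 2.78 to 17.8 FPKM in aged mice (log2 fold change 2.18, SE 0.38, adjusted p = 0.034). Both members were lowest among the aged mice in aged AL mouse 13, and their separate values are uncertain. Igkv10-94 stood at 9.94 to 17.7 FPKM in young and 17.4 to 116 FPKM in aged mice (log2 fold change 1.62, SE 0.28, adjusted p = 0.034), overlapping by aged CR mouse 5. Ighv1-53 stood at 7.02 to 23.0 FPKM in young and 19.6 to 104 FPKM in aged mice (log2 fold change 2.03, SE 0.39, adjusted p = 0.043). Igkv4-55 stood at 4.23 to 50.0 FPKM in young and 35.8 to 990 FPKM in aged mice (log2 fold change 3.69, SE 0.72, adjusted p = 0.048), and its highest mouse, aged CR 7, is the one it dominates. Of these 6, Ighv14-4 stayed past the threshold in all 17 alternative settings, and the others in 4 to 9 of them.

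**Figure D4:**
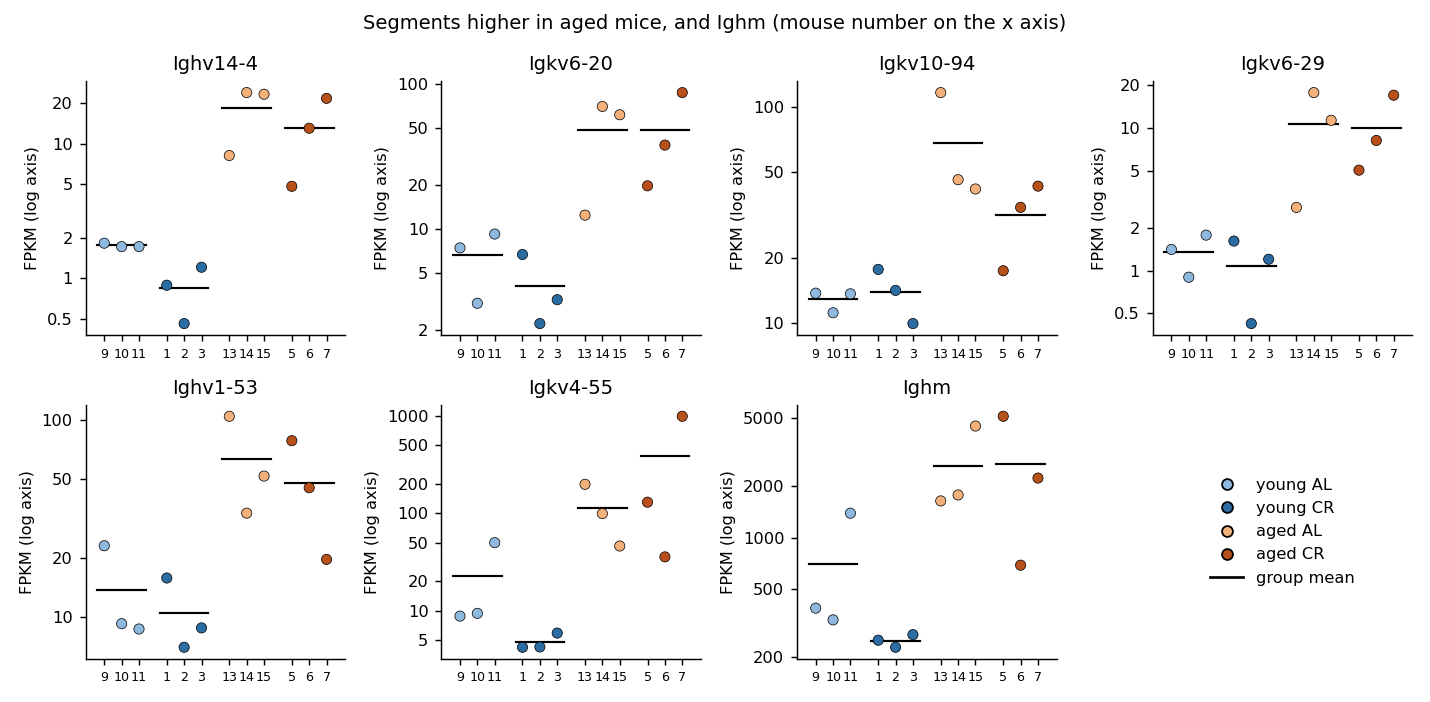
FPKM (log axes) of the 6 members called higher in aged mice and of the constant region gene Ighm in each mouse, with mouse numbers on the x axis, groups by color and group means as lines. Ighv14-4, Igkv6-20 and Igkv6-29 are higher in all 6 aged mice than in any young mouse.

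Members lower in aged mice were few. The pseudogene Ighv1-41 stood at 3.03 to 6.78 FPKM in young and 2.80 to 5.19 FPKM in aged mice (log2 fold change -0.47, SE 0.15, adjusted p = 0.18), and Igkv8-30 at 25.2 to 141 FPKM in young and 7.61 to 154 FPKM in aged mice (log2 fold change -1.43, SE 0.54, adjusted p = 0.23). Neither passed the test. Among the 15 families with at least 4 members, the median fold change with age was above 0 in 14. It was highest in heavy family 5 (1.205 over 8 members) and kappa family 3 (1.05 over 8 members), and -0.03 in kappa family 2.

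In young mice, no member was called for CR against AL at an adjusted p under 0.05 (limma), where 0.0368% of all genes were called higher and 0.0294% lower, and the smallest adjusted p of a member was 0.17. At an unadjusted p under 0.05, 9 members were higher and 11 lower with CR, against 5.79% and 5.24% of all genes. The fold change was above 0 for 67 members (39.6%) and 52.2% of all genes, with a median of -0.25 for members and 0.01 for all genes. The CR and AL mice did not overlap for 9 members that were higher and 14 that were lower, which is 5.33% and 8.28% of members against 10.1% and 9.38% of all genes, so both shares were below the background.

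Igkv12-46 came closest. It stood at 18.8, 213 and 163 FPKM in young AL mice 9, 10 and 11 and at 9.03, 8.64 and 6.04 FPKM in young CR mice (log2 fold change -3.33, SE 0.76, adjusted p = 0.17), so that all CR mice were below all AL mice. Without young AL mouse 9, the AL mouse nearest to the CR mice, its adjusted p was 0.0257 (limma). No member was called for CR in young mice when any other single mouse was left out. Ighv4-1 stood at 103, 8.28 and 21.6 FPKM in young AL and 3.21, 2.03 and 4.79 FPKM in young CR mice (log2 fold change -2.73, SE 0.83, adjusted p = 0.27). In the other direction Igkv4-90 stood at 0.198, 0 and 0.200 FPKM in young AL and 1.70, 2.03 and 2.18 FPKM in young CR mice (log2 fold change 1.39, SE 0.36, adjusted p = 0.21), levels near the 1 FPKM limit. Ighv13-2 stood at 0.937, 0.148 and 0.616 FPKM in young AL and 1.64, 8.46 and 13.5 FPKM in young CR mice (log2 fold change 2.22, SE 0.59, adjusted p = 0.21). These members did not pass the test.

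In aged mice no member was called either (limma, adjusted p under 0.05), nor was any other gene (0% in both directions), and the smallest adjusted p of a member was 0.29. At an unadjusted p under 0.05, 2 members were higher and 19 lower with CR, against 4.5% and 3.22% of all genes. The median fold change was -0.53 for members and -0.0044 for all genes, and 44 members (26%) were above 0 against 48.6% of all genes. All 3 aged CR mice were below all 3 aged AL mice for 24 members and above them for 1, against 5.33% and 5.7% of all genes. All 15 families with at least 4 members had a median below 0 in this comparison. The plot of fold change distributions shows this lower median beside the higher median with age.

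**Figure D5:**
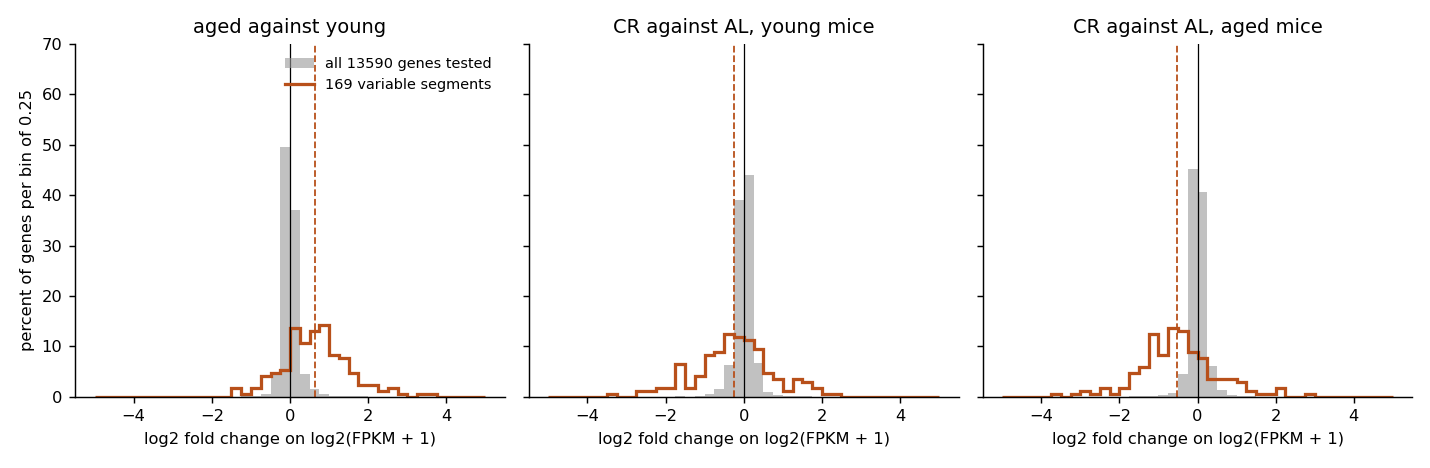
Distribution of log2 fold changes of the 169 members (orange outline, dashed line at the median) and of all 13590 genes tested (gray), in percent of genes per bin of 0.25, for aged against young mice and for CR against AL in each age. The members spread more widely than all genes, with medians of 0.65, -0.25 and -0.53.

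The 5 members with the smallest p in aged mice had lower values with CR, and none passed the test. Ighv1-20 had the smallest (log2 fold change -2.52, SE 0.53, adjusted p = 0.29), with its values given below, and Iglv2, given above, was the third. Ighv10-1 stood at 14.2, 7.21 and 15.1 FPKM in aged AL and 2.85, 4.90 and 2.40 FPKM in aged CR mice (log2 fold change -1.57, SE 0.35, adjusted p = 0.31). Igkv12-44 stood at 55.0, 228 and 30.1 FPKM in aged AL and 10.4, 21.0 and 11.9 FPKM in aged CR mice (log2 fold change -2.31, SE 0.63, adjusted p = 0.41). Ighv5-16 stood at 47.9, 25.4 and 10.1 FPKM in aged AL and 15.8, 2.83 and 5.11 FPKM in aged CR mice, which overlapped (log2 fold change -1.73, SE 0.56, adjusted p = 0.49). The only member that was higher without overlap was Ighv14-2, at 5.35, 4.93 and 4.64 FPKM in aged AL and 7.76, 11.3 and 7.13 FPKM in aged CR mice (log2 fold change 0.68, SE 0.35, adjusted p = 0.69). Summed levels, which include the dominant segments, had log2 differences between CR and AL of -0.46 for heavy and -0.16 for kappa members, with overlapping groups. Leaving out the 5 highest members of each mouse, these were -0.61 and -0.63. Without aged AL mouse 15 both changed sign, to 0.07 and 0.28, and the kappa difference also did without aged CR mouse 6 (0.13) or 7 (0.04). In young mice the same differences were -0.56 for heavy sums, which overlapped, and -0.81 for kappa sums, which did not. They were -0.32 and -0.49 without the 5 highest members of each mouse, and the heavy difference was -0.36 without young AL mouse 11.

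Over both ages together, no member was called for CR against AL at an adjusted p under 0.05 (limma), where 0.191% of all genes were called higher and 0.0662% lower. Without adjustment, at a p under 0.05, 1 member was higher and 17 were lower, against 7.42% and 6.45% of all genes. The fold change was above 0 for 50 members (29.6%) and 50.8% of all genes, and the diets did not overlap for 0 members that were higher and 1 that was lower, against 1.53% and 1.05% of all genes. Igkv12-46 had the smallest p (log2 fold change -2.18, SE 0.54, adjusted p = 0.10). Ighv5-15 stood at 23.4, 8.49 and 16.5 FPKM in young AL, 1.15, 1.10 and 2.55 FPKM in young CR and 160, 1.39 and 31.2 FPKM in aged AL mice, and in aged CR mice 5, 6 and 7 it was listed at 0, 5.02 and 0 FPKM (log2 fold change -3.17, SE 0.86, adjusted p = 0.14). Its young groups did not overlap and its aged groups did.

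No member and no other gene was called for a difference between the ages in the CR effect at an adjusted p under 0.05 (limma interaction term, 0% of all genes in both directions, smallest adjusted p of a member 0.999). At an unadjusted p under 0.05 the difference was positive for 2 and negative for 12 members, against 2.37% and 1.86% of all genes. Ighv1-20 had the smallest p. It stood at 0.355, 0.0745 and 0.0543 FPKM in young AL and 2.14, 3.17 and 1.74 FPKM in young CR mice, and at 20.3, 6.42 and 2.19 FPKM in aged AL and 0, 0.321 and 1.03 FPKM in aged CR mice. CR mice were thus all above AL mice at the young age and all below them at the aged one, at levels near 1 FPKM in several mice.

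Constant region genes, to which variable segments are spliced, were read for the same mice. Of 11 tested, 1 was called higher in aged mice, where 0.449% of all genes were. This was Ighm, the IgM heavy chain. It stood at 387, 331 and 1389 FPKM in young AL, 251, 229 and 271 FPKM in young CR, 1639, 1776 and 4490 FPKM in aged AL and 5121, 690 and 2230 FPKM in aged CR mice (log2 fold change 2.53, SE 0.50, adjusted p = 0.048). Young AL mouse 11 and aged CR mouse 6 overlapped. The call held in 6 of 17 alternative settings, with log2 fold changes of 1.53 to 2.91 and adjusted p from 0.0076 to 0.32. No constant region gene was called for CR at either age. Ighm made up 72.7%, 90.8% and 67.2% of the summed heavy constant level in aged AL 15, aged CR 5 and aged CR 7, and 12.7% to 54.4% in the other 9 mice. The 3 mice with dominant variable segments were thus also those with the highest IgM share.

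Values at the top of the scale move in steps between ranks, because all mice share 1 distribution of FPKM after quantile normalization, and Igkc stood at the same 6689 FPKM in young AL 11, aged AL 13 and aged AL 14. Igkc, the kappa constant gene, ranged from 1237 to 6689 FPKM in young and from 4490 to 17558 FPKM in aged mice (log2 fold change 1.57, SE 0.39, adjusted p = 0.097). It was highest, at 17558 and 15154 FPKM, in aged AL 15 and aged CR 5. Igha, the IgA heavy chain, stood at 145 to 461 FPKM in young and 214 to 1473 FPKM in aged mice (log2 fold change 1.38, SE 0.41, adjusted p = 0.15). Ighg2b and Ighg2c, both IgG heavy chains, had values of -1.06 (SE 0.54, adjusted p = 0.35) and -1.57 (SE 0.78, adjusted p = 0.35) for the log2 fold change with age, and Ighg1 and Ighg3 values of 0.57 and 0.03. Ighd ranged from 17.4 to 77.0 FPKM. Iglc1, a lambda constant gene, was like Iglv1 highest in aged AL mouse 15 at 718 FPKM and next in aged CR mouse 6 at 408 FPKM. Iglc2 and Iglc3 ranged from 43.1 to 213 FPKM and from 39.0 to 103 FPKM. Ighe and Iglc4 were below 1 FPKM on average.

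Genes of the cells that make immunoglobulin were taken as lists. None of 18 genes of antibody secreting cells was called with age, although 17 had a fold change above 0 (median 0.38). Their summed level was 1054 FPKM in aged AL mouse 15 and 373 to 669 FPKM in the other 11 mice. In aged CR mice 5, 6 and 7 it was 616, 669 and 522 FPKM. The highest of these was mouse 6, which had no dominant segment. Derl3, of the endoplasmic reticulum degradation machinery, stood at 33.7 FPKM in aged AL 15 and at 12.2 FPKM in aged CR 5. It stood at 1.26 to 4.92 FPKM in the other mice, among them aged CR 7, which also had dominant segments. Of 17 entries of mature B cell genes, in which Cd37 has 2 entries, none was called and 7 were above 0 with age (median -0.12), with summed levels of 455 to 811 FPKM in young and 460 to 939 FPKM in aged mice. In young mice 2 of these 17 entries were above 0 with CR (median -0.40), and 3 of the 18 antibody secreting cell genes (median -0.18). In aged mice 8 of the 17 mature B cell entries (median -0.07) and 0 of the 18 antibody secreting cell genes (median -0.23) were above 0 with CR.

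Of 13 tested genes of B cell precursors and recombination, none was called and none was above 0 with age (median -0.47), with summed levels of 92.6 to 190 FPKM in young and 46.8 to 135 FPKM in aged mice. With CR, 0 of the 13 were above 0 in young (median -0.38) and 1 in aged mice (median -0.51). Rag1 stood at 1.46 to 3.49 FPKM in the young mice and at 0.244, 0.0325 and 0.0033 FPKM in aged AL 14, aged CR 6 and aged CR 7, while aged AL 13, aged AL 15 and aged CR 5 had 3.08, 2.29 and 1.07 FPKM. Igll1, the surrogate light chain, stood at 5.57 to 26.9 FPKM in young mice and at 0.777, 0.144 and 0.194 FPKM in the same 3 aged mice, and at 17.5, 14.4 and 6.91 FPKM in the other 3. These were not the same mice as the 3 with dominant segments, only aged CR 7 being in both.

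Markers of other cells in whole bone were read beside these values. Summed neutrophil markers were lowest in aged AL 15 and aged CR 5, at 30130 and 31960 FPKM, against 39165 to 48522 FPKM in the other mice. Summed adipocyte markers stood at 388 to 420 FPKM in young AL, 712 to 972 FPKM in young CR, 378 to 702 FPKM in aged AL and 729 to 1253 FPKM in aged CR mice. Of these markers 4 of 10 were called higher with CR over both ages, where 0.191% of all genes were. Muscle markers ranged from 202 to 1478 FPKM and were highest in aged AL 14. With age, 10 of 10 muscle markers were above 0 (median 0.73), 0 of 12 neutrophil markers (median -0.25) and 0 of 12 osteoblast and osteocyte markers (median -0.35), beside the 0.65 of the segments, and with CR in aged mice 0 of 10 muscle markers were (median -0.42). T and NK cell, erythroid, and osteoblast and osteocyte markers were at 89.98 to 159, 186450 to 187380 and 529 to 2373 FPKM. The erythroid sum lies at the top of the scale, where quantile normalization gives all mice nearly the same values. It therefore does not measure erythroid content. The part of all these other cells in the segment values was not tested.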

How the data were processed

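Whole-tibia mRNA of 12 mice (stranded poly-A libraries) was sequenced by the study. Per the labels, the authors used Trim Galore 0.5.0, STAR 2.6.1 and StringTie 2.1.3b on mm10. The deposited values are FPKM per gene, quantile-normalized by the authors, so all mice have the same distribution and total, the values near the top are steps between ranks, and the read depth is unknown. The sources used here do not say how a mouse's 4 technical repeats were merged. Tests compare mice, so p-values reflect variation among mice.

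The 13590 genes whose mean reached 1 FPKM were tested on log2(FPKM + 1) with limma 3.58.1 in R 4.3.3 (4 group means, variance trend, Benjamini-Hochberg adjustment, threshold 0.05) for 5 comparisons. The fit was tested on simulated data. Fold changes on this scale understate changes of low genes. The Welch test, which the study's methods name, was run as an alternative with and without Benjamini-Hochberg adjustment. Sums, shares and effective numbers were computed over the members and described without a test. Exon sequences and similarity (edlib 1.3.9.post1, edit distance divided by the longer length) came from GENCODE vM21.

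The members and gene lists were chosen with earlier results of these data known. Named were all lambda members, the 10 highest heavy and kappa members, top segments of a mouse, the members with the smallest p per comparison and direction, those with the highest ratio of top to median mouse, and constant region genes, with examples given where a value turned on them.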

Additional observations from a re-analysis of the deposited data

Results flagged for a closer look

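For 2 members, all 3 CR mice lay above all 3 AL mice at the young age and below all 3 AL mice at the aged one. The share of all genes with this opposite pattern was not counted, so the 2 members are not read as more than background. For each age alone, 10.1% of all genes were higher without overlap in young CR mice, and 5.33% lower in aged CR mice. Ighv1-20 had a log2 difference between the ages in the CR effect of -4.03 (SE 0.75, unadjusted p = 0.00022, adjusted p = 0.999, limma interaction term), from a CR effect of 1.51 in young and -2.52 in aged mice. Ighv1-82 had a difference of -2.89 (SE 0.88, unadjusted p = 0.0074, adjusted p = 0.999), with 5.84, 4.26 and 7.595 FPKM in young AL, 14.7, 82.1 and 8.33 FPKM in young CR, 38.6, 29.6 and 30.0 FPKM in aged AL and 11.2, 11.2 and 23.4 FPKM in aged CR mice. Neither difference passed the adjustment. Ighv1-20 is 98.7% identical over its second exon to Ighv1-37, which was at most 0.818 FPKM in any mouse.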

How the results depend on the processing

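No member called for age, 6 in the reported fit, fell below 0 in any setting, and all 52 fold changes of named genes kept their direction. The members called with age were all higher unless given otherwise. They numbered 6 with a pseudocount of 0.1 (3.55% of members, 0.743% of all genes) and 7 with median-ratio scaling (4.14% and 0.876%). With no filter on low FPKM 1 was called (0.376% and 0.154%). With a quality weight per mouse 22 were called (20 higher, 2 lower), which is 13% of members where 13.2% of all genes were called. A setting without the 3 mice whose top heavy segment held over 30% was chosen after seeing the data. It leaves 1 aged CR mouse, so its counts are not given. Leaving out 1 mouse gave 1 to 6, with 1 without young AL 9, young CR 1 or young CR 2, 2 without young AL 10, and 3 without young AL 11 or aged AL 15. The share of all genes called in these fits ran from 0.155% without young CR 2 to 1.61% without young CR 3. It was 1.53% without aged CR 6, where 6 members were called. For CR in young mice the count of 0 became 1 with the quality weight (0.592% of members, 2.24% of all genes) and 3 in a fit of the 2 groups only (1.78% and 0.545%). It became 5 in Welch tests without adjustment (2.96% and 8.65%, 0 members with it). When 1 mouse was left out it was 0 to 2, with 2 without young AL 9 (1.18% and 0.0368%). For CR in aged mice it became 5 with the quality weight (2.96% of members, 1.42% of all genes) and 7 in unadjusted Welch tests (4.14% and 3.58%, 0 members adjusted). Over both ages it became 6 with the quality weight (3.55% of members, 6.79% of all genes), and 0 to 1 when 1 mouse was left out. It was 1 (0.592% of members) without young AL 9, young AL 10, aged AL 14 or aged CR 5. In these fits 0.0809%, 0.0662%, 1.05% and 1.64% of all genes were called. The difference between the ages stayed at 0. Leaving out the 5 highest members of each mouse was chosen after seeing the data. It lowered the log2 age difference from 1.30 to 0.63 for the heavy sum and from 1.41 to 0.77 for the kappa sum. The CR minus AL difference of the top kappa share in aged mice was 2.19 percentage points. This difference ranged from -4.73 to 14.5 when 1 mouse was left out, the latter without aged AL 15. The causes were not tested. No paired analysis was possible because mouse numbers are not shared between groups. Depth is not known, so no counting error could be given, and values near 1 FPKM are the least certain.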
